A study of Rattus norvegicus with 4 samples.

Results

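The antioxidant and NRF2 target genes described here are 38 named genes that detoxify peroxides, quinones and superoxide, supply glutathione, thioredoxin and NADPH, store iron, or control these functions. Members were the rows of the deposited count table with one of these symbols and at least 40 counts over the 4 libraries. Of the 38, 37 qualified, among 12228 genes that met the same minimum and 34034 genes listed. The one that did not was Gsta4, a glutathione transferase gene, with 7 counts in the senescent control and 0 in the other libraries, where 0 counts allow up to 0.271 to 0.302 CPM, the count relative to the scaled total of its library. The cells were mesenchymal stem cells from rat femurs, kept in osteogenic induction medium and sampled at day 1, when treatment had lasted 24 h. There were 4 libraries, 1 for each condition. The young control came from young cells given vehicle. The other 3 came from senescent cells, given vehicle (the senescent control), trichostatin A (TSA, a histone deacetylase inhibitor), or TSA together with phenamil, a relative of the diuretic amiloride. None of the 4 libraries had phenamil without TSA, and the design text names benzyl ether where the sample labels name phenamil. Doses, the way senescence came about, and the number of animals behind each library are not stated in the labels.

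NRF2, encoded by Nfe2l2, is a transcription factor held in check by KEAP1, which marks it for degradation until oxidants or electrophiles alter cysteines of KEAP1. NRF2 then pairs with small MAF proteins and binds antioxidant response elements near genes such as Nqo1, Hmox1, Gclm and Txnrd1. Other members, among them the superoxide dismutases, most peroxiredoxins and Gpx4, are part of the wider antioxidant defence and are only partly or not controlled by NRF2. Oxidative damage is one of the stresses associated with senescence of stromal cells in culture.

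Promoters were searched for the core of the antioxidant response element, written TGACNNNGC, on both strands from 250 bases before to 50 bases after the RefSeq start in the build GRCr8. The core can overlap the AP-1 site TGANTCA, since TGACTCAGC holds both. Of 30 members with such a window, 9 held the core (30.0%), beside 15.4% of 9856 compared genes with a window. Counted by window, 9 of the members' 34 windows held it, beside 12.1% of all 33469 windows, those of genes not compared included. The 6 windows shown were picked to compare genes whose cores are alike but whose levels, given further on, ran in different orders, and are no sample of the 9. They are read 5′ to 3′ on the strand that spells the core, which is in capitals.
Prdx1: cggcggggtaTGACTCAGCgctttccctg
Gstp1: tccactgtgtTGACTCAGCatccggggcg
Me1: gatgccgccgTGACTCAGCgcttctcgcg
Ephx1: atagccccaaTGACTCAGCtgatctgttg
Gclm: tggaagacaaTGACTAAGCagaaaccgca
Txnrd1: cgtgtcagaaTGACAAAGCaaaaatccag
The Prdx1 window is at chr5:135383761-135383789 on the minus strand, Gstp1 at chr1:210769748-210769776 (minus), Me1 at chr8:96540393-96540421 (minus), Ephx1 at chr13:95263156-95263184 (plus), Gclm at chr2:213031953-213031981 (minus) and Txnrd1 at chr7:22755964-22755992 (plus). The first 4 hold the same 9 bases and also the AP-1 letters. The other members with the core were Nfe2l2, Prdx5 and Sod2. A match describes these letters only.

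Library totals ran from 9873894 counts (TSA) to 11024227 counts (senescent control), all in 1 batch per the labels. Values are scaled counts in CPM, and ratios between libraries carry 95% exact counting intervals in parentheses. With 1 library per condition there was no replicate check, no p-value could be given, and each ratio describes 2 libraries. A gene was called when its ratio was past 1.2-fold and its interval excluded no change. The senescent control enters 3 of the 4 main comparisons and the TSA library 2, so ratios that share a library are not independent of each other. All 10 stromal markers passed the count minimum, with a summed level of 47440 CPM (TSA) to 57040 CPM (TSA + phenamil). That sum is mostly Col1a1 and Col1a2, with 1284062 and 554338 counts in all, beside 520 for Nt5e and 83 for Eng. Of 16 macrophage markers 1 passed the minimum (Cd14, 289 counts in all) and 5 had 0 counts (Adgre1, Aif1, Cd163, Itgam and Lyz2). The macrophage list summed to 5.68 and 6.45 CPM in the young and senescent controls and to 10.6 and 10.3 CPM with TSA and TSA + phenamil. No red cell, endothelial or fat cell marker passed, with 5 of 12, 3 of 7 and 2 of 5 at 0 counts, among them Hbb, Pecam1 and Lep. These lists summed to at most 3.73 CPM in any library, and the most counted of their genes were Hba-a1 (37 counts) and Ahsp (30 counts). Ribosomal protein genes took 7.53%, 7.98%, 8.89% and 8.13% of counts and mitochondrially encoded genes 5.47%, 5.66%, 6.02% and 6.85%, in the order young control, senescent control, TSA, TSA + phenamil. The part of these shifts, the macrophage sums included, in the results that follow was not tested.

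Members were most often at their highest level in the TSA library. This held for 23 of 37 members (62.2%), beside 28.0% of all genes compared. The young control, senescent control and TSA + phenamil libraries held the highest level of 4, 4 and 6 members (10.8%, 10.8% and 16.2%), beside 27.5%, 21.6% and 22.9% of all genes. The lowest level was in the young control for 15 members (40.5%, beside 28.1% of all genes), in the TSA + phenamil library for 11 (29.7%, beside 22.7%), in the senescent control for 7 (18.9%, beside 20.6%) and in the TSA library for 4 (10.8%, beside 28.6%). The summed level of all members was 7253, 7586, 8292 and 7549 CPM in the order given above. Between the highest and the lowest library the members differed by 1.06-fold (Nfe2l2) to 2.05-fold (Mgst3), with a median of 1.29-fold.

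**Figure D1:**
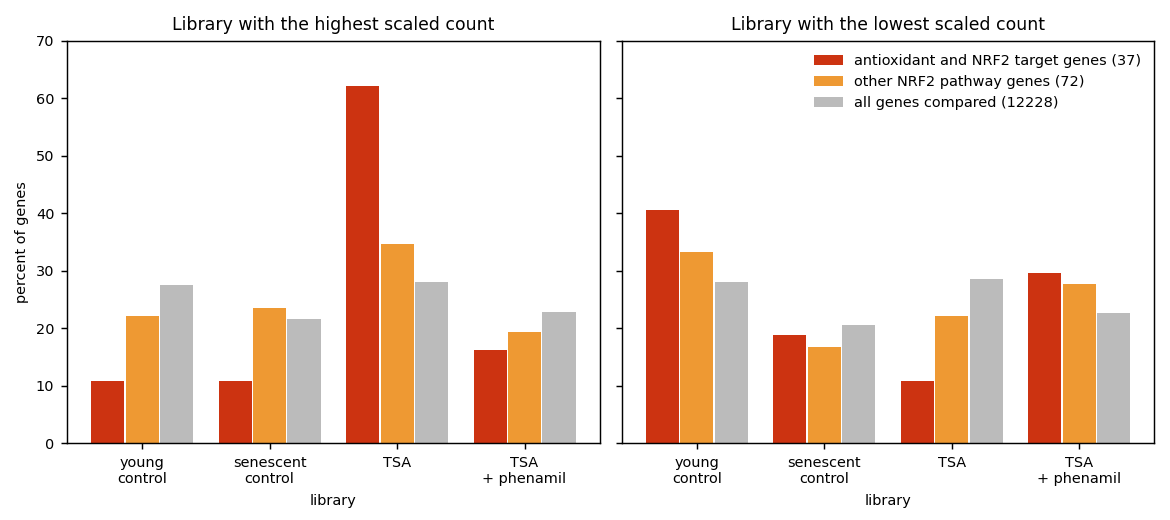
Percent of genes (vertical axis) whose highest (left) or lowest (right) scaled count was in each library, for the 37 antioxidant and NRF2 target genes, 72 other NRF2 pathway genes and all 12228 genes compared. The bar for the TSA library stands at 62.2% of the members on the left and at 10.8% on the right.

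A stricter count asked which members stood apart in 1 library, with intervals excluding no change against each of the other 3. The TSA library was above the other 3 for 11 of 37 members (29.7%, beside 6.24% of all genes): Nqo1, Hmox1, Gsr, Txn1, Srxn1, Pgd, Gpx1, Gpx8, Sod1, Sod3 and Fth1. It was below the other 3 for Txnrd1 and Sqstm1 (5.41%, beside 5.80%). The young control was below the others for 7 members (18.9%, beside 6.30%), namely Cat, Gpx8, Prdx2, Prdx3, Sod1, Sod3 and Txn1, and above them for Gclc, Gstp1 and Sqstm1 (8.11%, beside 5.43%). The senescent control was above the others for Keap1 and Prdx5 (5.41%, beside 2.34%) and below them for Ftl1, Hmox1 and Tkt (8.11%, beside 2.43%). TSA + phenamil was above the others for Ftl1 and Tkt (5.41%, beside 3.07%) and below them for Gpx1, Mgst3 and Prdx5 (8.11%, beside 2.93%). Intervals narrow with counts, and 36 of 37 members but 9650 of 12228 genes had at least 200 counts. The same limit applies to the counts by the interval alone given below.

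**Figure D2:**
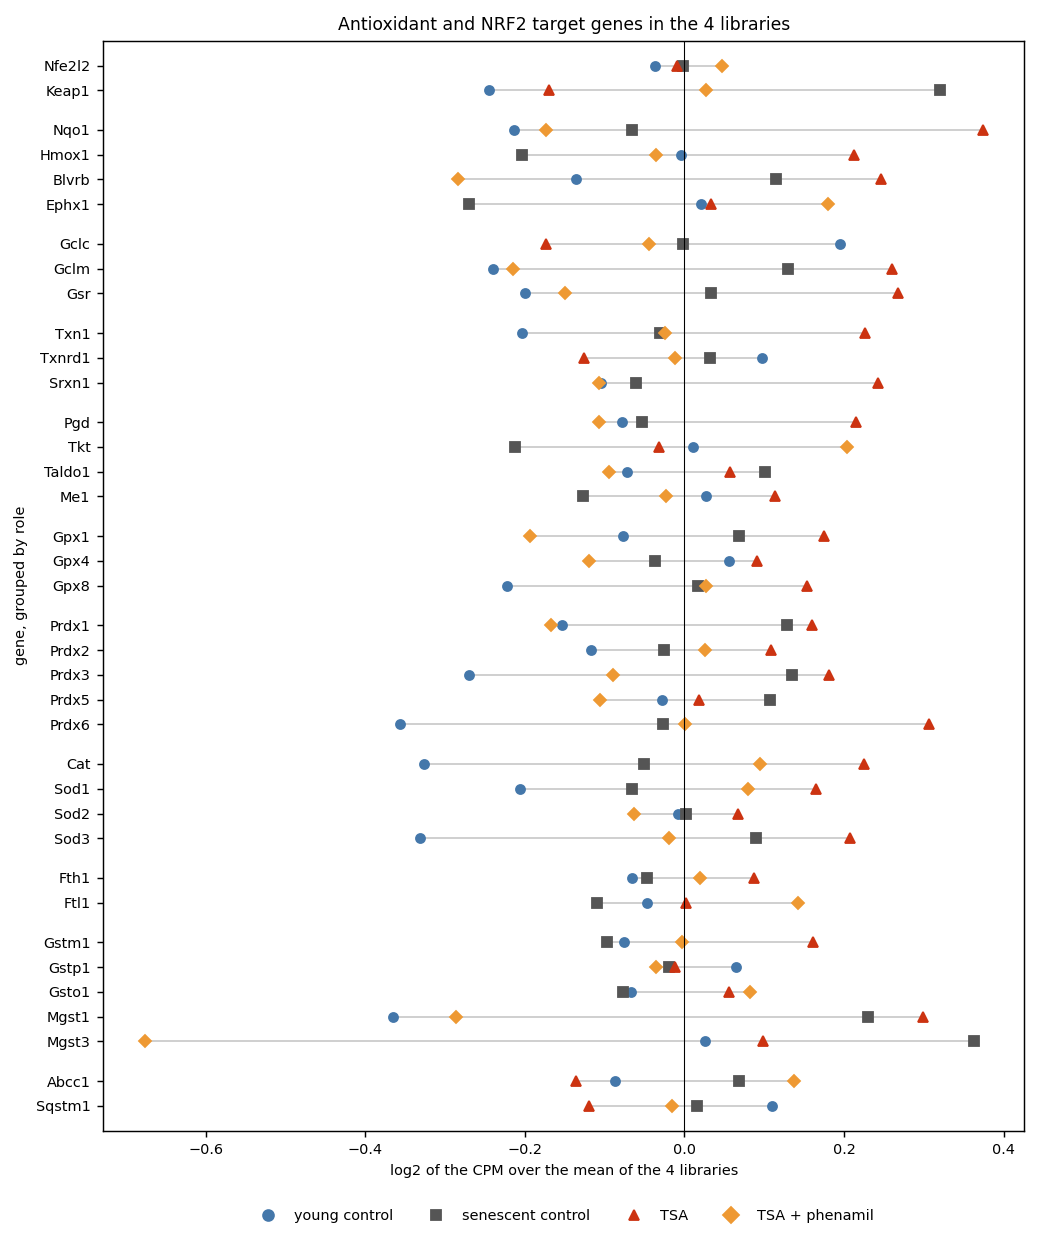
Level of each of the 37 genes in the 4 libraries, as log2 of its CPM over the mean of its 4 CPM values (horizontal axis), with genes grouped by role (vertical axis) and 1 symbol per library. The TSA symbol is the rightmost for 23 genes and the leftmost for Gclc, Txnrd1, Abcc1 and Sqstm1.

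The regulators NRF2 and KEAP1 differed in their range. Nfe2l2 was at 223 CPM in young control cells, 229 in senescent control cells, 227 with TSA and 236.5 with TSA + phenamil, the narrowest range among the members. Its ratios in the 4 main comparisons lay between 0.995 (0.939 to 1.05) and 1.04 (0.982 to 1.101), and all of these intervals included no change. Keap1, the NRF2 inhibitor, was at 17.1, 25.3, 18.1 and 20.7 CPM in the same order. The senescent control was high and the young and TSA libraries were low. Keap1 stood at 1.48 (1.23 to 1.79) in senescent over young control, at 0.713 (0.587 to 0.863) in TSA over senescent control, and at 0.816 (0.680 to 0.978) in TSA + phenamil over senescent control. These 3 ratios rest on 279 counts in the senescent control and 179 to 217 in the others.

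Nqo1, the quinone reductase that is a standard readout of NRF2 activity, was at 169.9 CPM in young control cells, 188 in senescent control cells, 255 with TSA and 175 with TSA + phenamil. Only the TSA library was high, at 1.36 (1.28 to 1.44) times the senescent control, and TSA + phenamil stood at 0.685 (0.644 to 0.727) times the TSA level. Hmox1, the inducible heme oxygenase, was at 234, 204, 272 and 229 CPM. Here the senescent control was the lowest library and TSA the highest, with a ratio of 1.34 (1.26 to 1.41) between them. For TSA + phenamil over TSA, Hmox1 stood at 0.842 (0.797 to 0.8897), inside the 1.2-fold limit. Blvrb, which encodes a biliverdin reductase, was at 17.4, 20.7, 22.7 and 15.7 CPM, and TSA + phenamil stood at 0.693 (0.563 to 0.851) times the TSA level. Ephx1, the microsomal epoxide hydrolase gene, was at 11, 8.99, 11.1 and 12.3 CPM. Its TSA + phenamil level was 1.37 (1.04 to 1.79) times the senescent control level, from 129 against 99 counts.

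The genes for glutathione supply split. Gclm, the modifier subunit of the enzyme that limits glutathione synthesis, was at 14.7, 18.98, 20.8 and 14.95 CPM. The senescent control and TSA libraries were high and the other 2 low. Gclm stood at 1.29 (1.05 to 1.595) in senescent over young control, and at 0.721 (0.581 to 0.8904) in TSA + phenamil over TSA. Gclc, the catalytic subunit of the same enzyme, ran in another order, at 51.3, 44.8, 39.7 and 43.4 CPM, with the young control highest and TSA lowest. Its TSA level was 0.775 (0.679 to 0.882) times the young level. Gsr, the reductase that regenerates glutathione, was at 27.1, 31.8, 37.4 and 28.0 CPM, and TSA + phenamil stood at 0.749 (0.640 to 0.875) times TSA.

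In the thioredoxin system the substrate protein and its reductase also ran in different orders. Thioredoxin itself, Txn1, was at 707, 797, 952 and 801 CPM, so TSA was 1.195 (1.16 to 1.23) times the senescent control, just inside the limit, and 1.35 (1.31 to 1.39) times the young control. Txnrd1, the cytosolic thioredoxin reductase, was at 145, 139, 124 and 134 CPM, with TSA at 0.896 (0.830 to 0.966) times the senescent control. Srxn1, which repairs overoxidized peroxiredoxins, was at 42.2, 43.5, 53.6 and 42.1 CPM. Only its TSA level stood out, at 1.23 (1.09 to 1.398) times the senescent control, and TSA + phenamil stood at 0.785 (0.690 to 0.892) times TSA.

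Of the genes grouped under NADPH supply, Tkt and Taldo1 encode pentose phosphate enzymes that do not make NADPH themselves. Pgd (6-phosphogluconate dehydrogenase), whose enzyme does, was at 507, 515, 620.4 and 496 CPM. TSA stood at 1.204 (1.16 to 1.25) times the senescent control, just past the limit, and TSA + phenamil at 0.800 (0.771 to 0.8304) times TSA. Transketolase, Tkt, was at 172.5, 148, 167 and 197 CPM. For this gene TSA + phenamil was highest and the senescent control lowest, with a ratio of 1.33 (1.25 to 1.43) between them. Taldo1 (transaldolase) ran from 113 to 129 CPM and Me1 (malic enzyme) from 69.2 to 81.8 CPM, and neither was called in a main comparison.

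Among the peroxide-removing enzymes, Gpx1, Prdx1 and Prdx3 were called lower in TSA + phenamil over TSA, and Gpx8, Prdx1, Prdx3 and Prdx6 higher in TSA over young control. Gpx1, the cytosolic glutathione peroxidase, was at 523, 579, 623 and 482.5 CPM. TSA + phenamil was the lowest library, at 0.775 (0.746 to 0.804) times TSA. Prdx1 was at 66.4, 80.7, 82.5 and 65.7 CPM, so that senescent control and TSA were high and the young and TSA + phenamil libraries low. It stood at 1.22 (1.102 to 1.34) in senescent over young control and at 0.797 (0.719 to 0.883) in TSA + phenamil over TSA. Prdx3, the mitochondrial peroxiredoxin, was at 68.8, 91.1, 94.1 and 78.0 CPM, with senescent over young control at 1.32 (1.204 to 1.46). Its TSA + phenamil level was 0.829 (0.754 to 0.912) times the TSA level. Gpx8, which acts in the endoplasmic reticulum, was lowest in the young control, at 239.9, 283, 311 and 285 CPM. Gpx4, which reduces lipid peroxides, ran from 119 to 138 CPM, Prdx2 from 200.4 to 234 CPM and Prdx5 from 507 to 588 CPM. Prdx6 had 113 to 160 counts per library, and its intervals included no change in all 4 main comparisons, although TSA over young control was at 1.58 (1.24 to 2.03).

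Catalase, Cat, was at 37.4, 45.3, 54.8 and 50.1 CPM. The young control was lowest, with senescent over young control at 1.21 (1.06 to 1.38) and TSA over senescent control at 1.21 (1.07 to 1.37). Sod3, the extracellular superoxide dismutase, was at 169, 226, 245 and 209 CPM. It was low in the young control and called in senescent over young control at 1.34 (1.26 to 1.42). Sod1, the cytosolic enzyme, was at 278, 307, 359.8 and 339 CPM, and Sod2, the mitochondrial one, between 64.6 and 70.7 CPM. Neither was called in a main comparison. The ferritin genes encode the iron storage shell. Fth1, the heavy chain, was at 1212, 1228, 1347 and 1286 CPM. Ftl1, the light chain, was at 398.5, 381.5, 412 and 454.5 CPM, with TSA + phenamil at 1.19 (1.14 to 1.24) times the senescent control, inside the limit.

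Of the 5 glutathione transferases with enough counts only Mgst3 was called. This membrane-bound transferase had 67, 84, 63 and 39 counts, or 6.04, 7.63, 6.35 and 3.71 CPM. TSA + phenamil was lowest, at 0.4901 (0.324 to 0.7201) times the senescent control and 0.588 (0.382 to 0.886) times TSA. Gstp1 stayed between 280.1 and 300.4 CPM. Gstm1 and Gsto1 each differed by at most 1.196-fold between libraries, and Mgst1, with 12 to 18 counts a library, had intervals too wide to read. Abcc1, an exporter of glutathione conjugates, was at 20.6, 22.9, 19.9 and 24.0 CPM. Sqstm1, an autophagy receptor that binds KEAP1, was at 372, 349, 317 and 341 CPM. Both were lowest with TSA, and neither was called. In all, 16 members were called in at least 1 main comparison and 21 in none. The 16 are 43.2% of members, beside 51.0% of all genes, so members were not called more often than genes at large. The ratios of those 21 ran from 0.868 (Abcc1) to 1.26 (Prdx6) in TSA over senescent control and from 0.676 (Mgst1) to 1.21 (Abcc1) in TSA + phenamil over TSA.

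The first comparison asked how untreated senescent cells differed from young cells. Keap1, Gclm, Prdx1, Prdx3, Cat and Sod3 were called higher and no member lower. That is 16.2% and 0% of members, beside 11.5% and 11.6% of all genes, so the share called higher was near that of all genes. The median log2 ratio of the members was 0.14 (quartiles -0.06 and 0.25), beside 0.005 over all genes. By the interval alone 15 members were higher and 7 lower (40.5% and 18.9%), beside 18.1% and 16.7%. With a coefficient of variation of 0.1 between cultures assumed on top of counting error, Keap1 and Sod3 alone were called (5.41% higher, beside 4.7% of all genes).

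The second comparison set TSA against the senescent control. Nqo1, Hmox1, Srxn1, Pgd and Cat were called higher and Keap1 lower. These are 13.5% and 2.7% of members, beside 9.78% and 9.76% of all genes, and the first share is again near that of all genes. The median log2 ratio was 0.13 (quartiles 0.007 and 0.24), beside -0.003 over all genes, and 28 of 37 ratios were above 1. By the interval alone 17 members were higher and 4 lower (45.9% and 10.8%), beside 15.7% and 14.7%. Scaling by total counts gave 8 higher and 1 lower (21.6% and 2.7%, beside 10.2% and 9.42% of all genes), so how far the share higher lay from that of all genes varied with the scaling. The assumed variation of 0.1 left Nqo1 and Hmox1 higher and Keap1 lower (5.41% and 2.7%, beside 4.15% each way).

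The third comparison set TSA + phenamil against the senescent control. Ephx1 and Tkt were called higher, and Keap1, Mgst3, Blvrb at 0.7596 (0.618 to 0.9315), Gclm at 0.788 (0.637 to 0.974) and Prdx1 at 0.814 (0.736 to 0.9002) lower. The shares of 5.41% and 13.5% stand beside 10.3% and 9.93% of all genes, and neither is far from them. The median log2 ratio was -0.04 (quartiles -0.196 and 0.07), beside -0.001 over all genes. By the interval alone 7 members were higher and 11 lower (18.9% and 29.7%), beside 15.8% and 15.9%. With the assumed variation of 0.1, Tkt was called higher and Mgst3 lower (2.7% each, beside 4.28% and 3.74%).

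The fourth comparison set TSA + phenamil against TSA. Nqo1, Blvrb, Gclm, Gsr, Srxn1, Pgd, Gpx1, Prdx1, Prdx3 and Mgst3 were called lower and no member higher. The 10 lower members are 27% of 37, beside 11.3% of all genes, and the 0% called higher stands beside 11.9%. The median log2 ratio was -0.14 (quartiles -0.32 and 0.03), beside 0.001 over all genes, and 27 of 37 ratios were below 1. By the interval alone 19 members were lower and 4 higher (51.4% and 10.8%), beside 17.1% and 16.6%. With total counts 14 members were lower and 0 higher (37.8% and 0%, beside 13.9% and 9.73%), and of all genes called 41.2% were higher in place of 51.3%. The assumed variation of 0.1 left Nqo1, Blvrb and Mgst3 (8.11% lower, beside 4.65%).

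**Figure D3:**
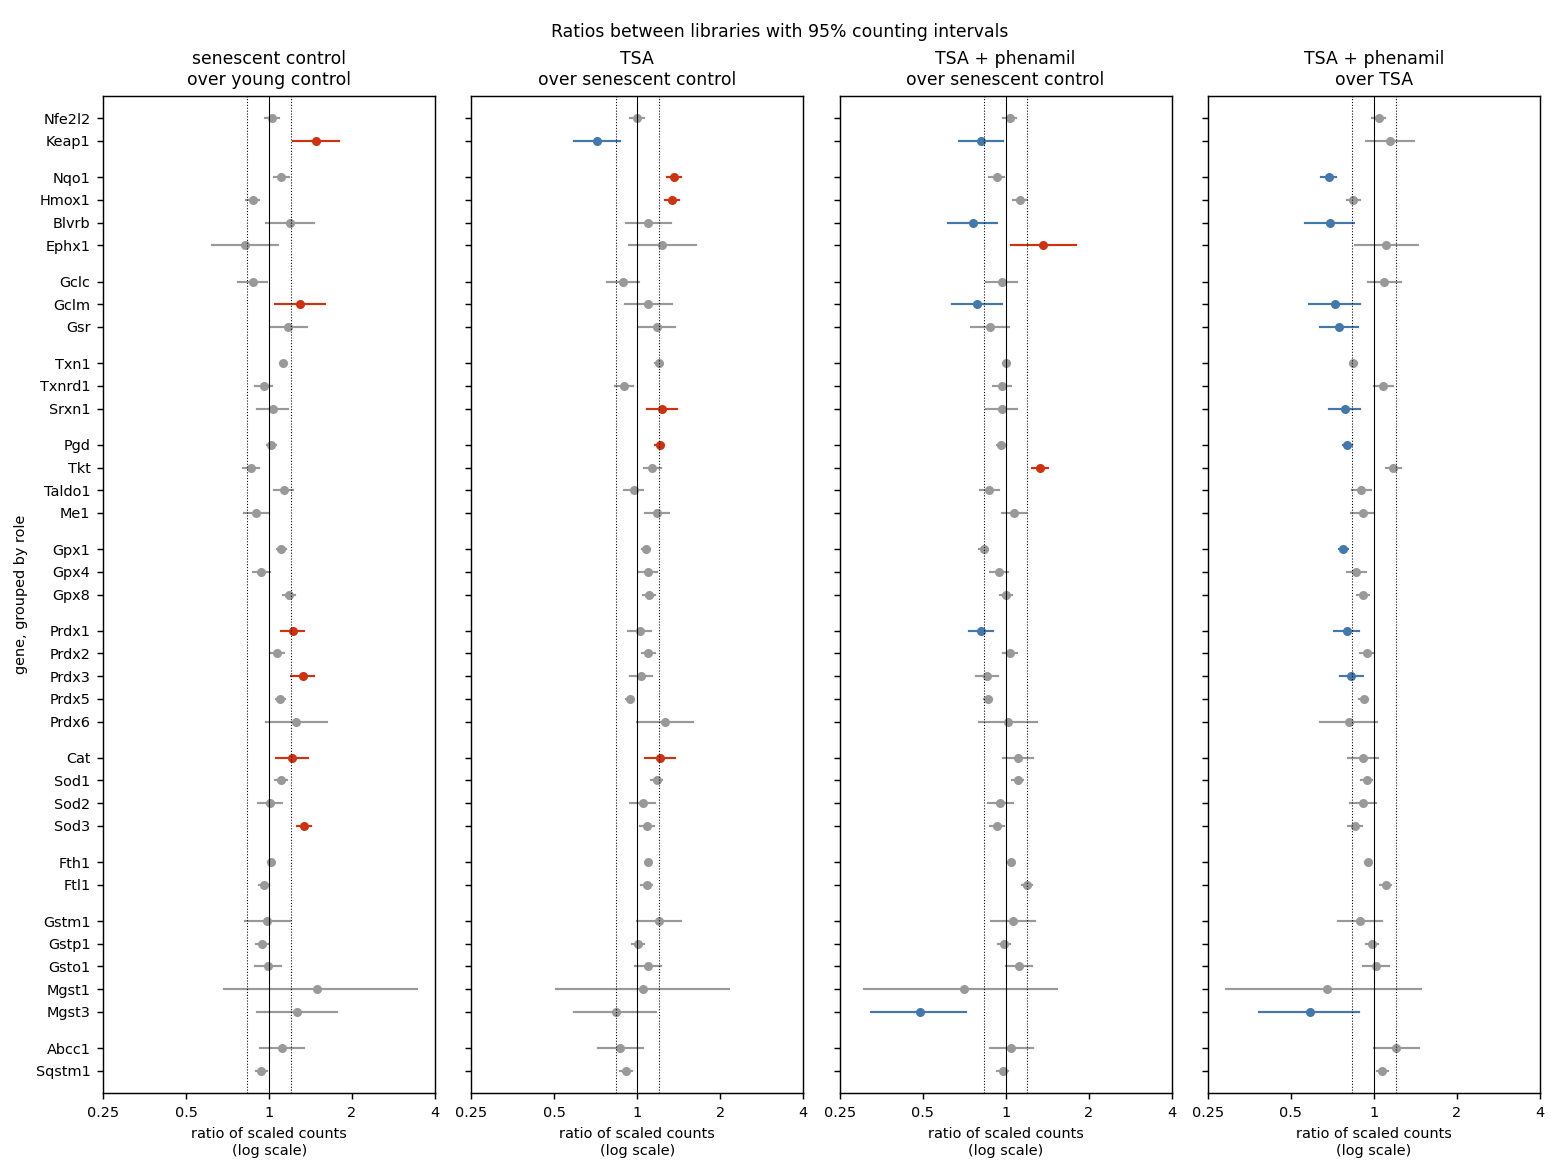
Ratio of scaled counts (horizontal axis, log scale) with its 95% counting interval for each of the 37 genes in the 4 main comparisons, with called genes in red (higher) or blue (lower), others in grey, and dotted lines at 1.2-fold in each direction. The last panel holds 10 blue and no red genes.

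Against the young control, both treated libraries were also compared. In TSA over young control 14 members were called higher (37.8%, beside 15.5% of all genes) and Gclc alone lower (2.7%, beside 16.2%), with a median log2 ratio of 0.22, beside 0.003. The higher ones were Nqo1 at 1.502 (1.42 to 1.595), Blvrb, Gclm, Gsr, Txn1, Srxn1, Pgd, Gpx8, Prdx1, Prdx3, Prdx6, Cat, Sod1 and Sod3. In TSA + phenamil over young control Cat at 1.34 (1.18 to 1.53), Sod1 at 1.22 (1.16 to 1.28) and Sod3 at 1.24 (1.17 to 1.32) were higher and Mgst3 at 0.618 (0.403 to 0.926) lower. These are 8.11% and 2.7% of members, beside 10.2% of all genes in either direction. Their median log2 ratio was 0.05. Under total counts 1 member was higher and 2 lower (2.7% and 5.41%, beside 7.5% and 14.0%), and 34.9% of all called genes were higher in place of 49.9%. The assumed variation of 0.1 ended all 4 calls of TSA + phenamil over young control. In TSA over young control it left 7 higher and 0 lower (18.9% and 0%, beside 7.58% and 8.2%).

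Of 78 further genes of the NRF2 pathway and antioxidant defence, 72 passed the count minimum. Their highest level was in the TSA library for 25 (34.7%, beside 28.0% of all genes), a smaller share than among the members; this difference was not tested. In senescent over young control 9 were called higher and 7 lower (12.5% and 9.72%, beside the 11.5% and 11.6% of all genes given above). Glrx, a glutaredoxin, stood at 2.34 (1.62 to 3.49), Mgst2 at 1.296 (1.23 to 1.37), and the iron exporter gene Slc40a1 at 0.548 (0.3895 to 0.758). Mafg, a small MAF partner of NRF2, was at 0.793 (0.723 to 0.868). In TSA over senescent control 8 were higher and 4 lower (11.1% and 5.56%, beside 9.78% and 9.76%), among them Msrb2, a methionine sulfoxide reductase, at 1.70 (1.34 to 2.17), Gsta1 at 1.28 (1.21 to 1.36), Hmox2 at 1.34 (1.17 to 1.55) and Msrb1 at 0.789 (0.701 to 0.888). In TSA + phenamil over senescent control 10 were higher and 10 lower (13.9% each, beside 10.3% and 9.93%). Slc40a1 stood at 2.05 (1.49 to 2.88), Selenop at 1.601 (1.29 to 1.995), and Mgst2 at 0.762 (0.721 to 0.805). In TSA + phenamil over TSA 6 were higher and 11 lower (8.33% and 15.3%, beside 11.9% and 11.3%), with Gstt2 at 1.77 (1.39 to 2.29), Msrb3 at 1.46 (1.38 to 1.55), Mgst2 at 0.622 (0.589 to 0.657) and Akr1b1, an aldose reductase, at 0.752 (0.692 to 0.817). These shares lay near those of all genes. Mgst2 ran through the libraries at 211, 274, 335 and 209 CPM, highest with TSA. The cystine carrier gene Slc7a11, which feeds glutathione synthesis, was at 30.8, 25.2, 23.3 and 31.1 CPM. Its TSA + phenamil and young control levels were close, with a ratio of 1.01 (0.865 to 1.18). Slc7a11 stood at 0.819 (0.696 to 0.962) in senescent over young control and at 1.34 (1.13 to 1.59) in TSA + phenamil over TSA.

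The windows shown at the outset were picked for genes with different orders of libraries, so those orders cannot tell what the core marks. Of the 4 genes with the same 9 bases, Prdx1 and Me1 were highest with TSA, Gstp1 in the young control and Ephx1 with TSA + phenamil. Gclm was highest with TSA and Txnrd1 lowest. Not all of these highest libraries were set apart by the interval. Prdx1 stood at 1.02 (0.928 to 1.125) and Gclm at 1.09 (0.8985 to 1.33) in TSA over senescent control. Me1 stood at 1.06 (0.9635 to 1.17) in TSA over young control. Ephx1 stood at 1.11 (0.852 to 1.44) in TSA + phenamil over TSA. Gstp1 in the young control and Txnrd1 with TSA did stand apart. In TSA over senescent control the median log2 ratio was 0.03 for the 9 members with the core. It was 0.13 for the 21 with a window and no core. Hmox1, Fth1, Gsr, Ftl1, Sod3, Gpx8 and Prdx6 had no window and are in neither set. Among them Hmox1, Gsr, Gpx8, Sod3 and Fth1 stood apart with TSA above the other libraries, and Ftl1 and Prdx6 did not. Bases outside the window were not searched, and the difference between the sets was not tested. Nqo1, whose window did not hold these letters, had the largest ratio of the members in that comparison.

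Gene span, the genomic length from start to end of a gene in the same build, moved with the libraries across all genes. In TSA over senescent control the median log2 ratio ran from 0.05 in the shortest quintile of genes to -0.075 in the longest, and in TSA + phenamil over TSA it ran from -0.07 to 0.10. Members are short: 24 of 37 lie in the shortest 2 quintiles. In those quintiles the members' median was 0.12 in TSA over senescent control, beside 0.04 over all genes there, and -0.16 in TSA + phenamil over TSA, beside -0.05. The members' medians were thus larger in size than those of all genes of short span in both comparisons, and the part of span in the members' values was not tested. Among the 3 members in the longest quintile, Txnrd1 and Abcc1 were lowest with TSA and Me1 was highest. Of these only Txnrd1 stood apart from the other libraries by the interval.

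**Figure D4:**
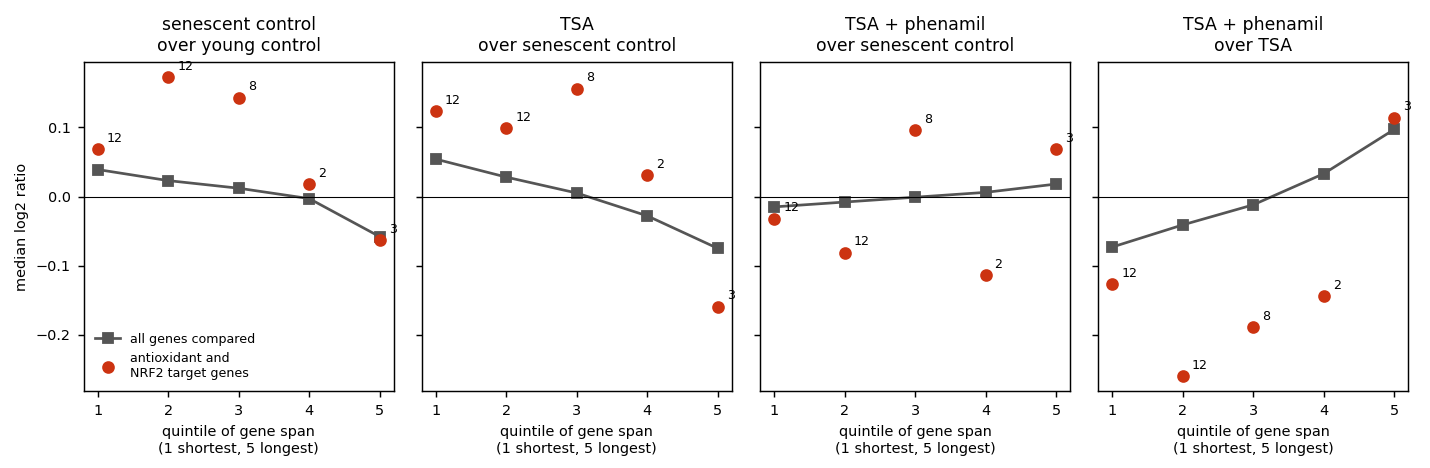
Median log2 ratio (vertical axis) by quintile of gene span (horizontal axis, shortest to longest) for all genes compared (grey squares) and for the antioxidant and NRF2 target genes (red circles, with their number) in the 4 main comparisons. In the shortest quintile of TSA over senescent control the 12 members stand at 0.12 and all genes at 0.05.

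Some members share reads with relatives or neighbours in ways the counting could divide. Ftl1 has a listed copy, Ftl1l1, with 14 to 21 counts a library, and Prdx1 has Prdx1l1, with 1 to 15. Those counts are small beside 4089 to 4773 for Ftl1 and 690 to 889 for Prdx1. Gstm1 belongs to a family in which Gstm2 and Gstm5 had 937 to 1229 counts a library, so its 234 to 252 counts are uncertain. Prdx5 overlaps the protein-coding gene Trmt112, and Txnrd1 overlaps Eid3. A further 7 members overlap only long noncoding RNA genes or pseudogenes. Whether counting used strand was not stated, so these counts are uncertain.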

How the data were processed

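Gene expression was measured in 4 libraries, 1 per condition. Per the labels' protocols, TRIzol RNA was made into 3′ tag libraries (QuantSeq FWD) and read single-end over 100 bp. The submitters' processing notes name the build mRatBN7.2 and the tools HTSeq 2.0.2 and STAR 2.7.10b without saying what each did. Annotation, strand use and duplicate handling were not given in the sources used here. The deposited counts are raw whole numbers per gene, per the file headers. The log2 files deposited by the authors are labelled normalized in their headers, and their values equalled log2 of a scaled count plus 1 within 0.000533.

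Library sizes were adjusted with TMM factors from edgeR 4.0.16 (R 4.3.3), over genes with at least 40 counts. The quasi-likelihood test could not be fitted with 1 library per group. Ratios used a prior count of 0.5, and 95% intervals were exact conditional binomial (Clopper-Pearson), computed in Python 3.11.15 (numpy 2.4.6, pandas 2.3.3, scipy 1.17.1) and drawn with matplotlib 3.10.9. Intervals and the floor of 3 counts cover counting error only, since the labels name no molecular identifiers and reads need not be separate molecules. The ratio script was tested on simulated data. All members are accounted for. Values in every library are given for the regulators and for each member called in a main comparison, and for some others. Of the further pathway genes, up to 4 per direction were eligible for naming, in order of how far the nearer interval bound lay from a ratio of 1, with at least 100 counts in the pair; Slc7a11 was named after its values were seen. Members, roles and lists were chosen with earlier results of these data known. The counts of members apart in 1 library and the gene spans were added after the values were seen. Sequences and spans come from RefSeq tables of GRCr8, in which 30 of 37 members had a promoter window and 98.2% of compared genes a span. The alternatives tried were scaling by total counts, by DESeq2 1.42.0, by the deposited log2 values, or by TMM leaving out ribosomal protein and mitochondrial genes, as well as other count minimums, other size rules, an assumed coefficient of variation of 0.1 and a prior count of 2.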

Additional observations from a re-analysis of the deposited data

How the results depend on the processing

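No paired analysis was possible because each condition has 1 library. For the counts of members, their medians and the order of libraries under alternatives, 172 values stayed near the main value and 38 did not. For counts, near meant within 1.5 times. For medians it meant a shift below the median half-width of the members' counting intervals. That width is one of single genes and not the error of a median. The number of members highest in the TSA library was 22 to 24 under every scaling and count minimum tried. No called member changed direction under another scaling or prior count. By the interval alone, which drops the fold limit, 15 members were higher and 7 lower in senescent over young control. In TSA over senescent control 17 were higher and 4 lower, and in TSA + phenamil over senescent control 7 and 11. TSA + phenamil over TSA gave 4 and 19. The shares of all genes for these counts are given above. TSA + phenamil over young control gave 11 and 8 (29.7% and 21.6%), beside 16.1% and 15.7% of all genes. TSA over young control gave 19 higher and 4 lower (51.4% and 10.8%), beside 20.9% and 20.4%. A limit of 1.5-fold left 0 higher in senescent over young control, beside 4.51% of all genes. In TSA over senescent control it left 0 higher and 0 lower, beside 3.87% and 3.74%. TSA + phenamil over senescent control had 0 and 1 (beside 4.04% and 3.53%), and TSA + phenamil over TSA 1 lower (beside 4.08%). TSA over young control had 2 and 0 (beside 5.74% and 6.71%), and TSA + phenamil over young control 0 higher (beside 3.8%). The assumed coefficient of variation of 0.1 left, in the same order, 2 higher, 2 higher, 1 higher and 1 lower, 3 lower, 7 higher and 0 lower, and 0 higher and 0 lower. The last pair stands beside 4.2% and 4.01% of all genes, and the shares for the others are given above. Total counts gave 8 higher in TSA over senescent control (beside 10.2% of all genes). In TSA + phenamil over young control they gave 1 higher and 2 lower (beside 7.5% and 14.0%). In TSA + phenamil over TSA, 1 was higher with TMM without mitochondrial and ribosomal protein genes (beside 12.1% of all genes). The deposited log2 values and 1.2-fold alone also gave 1 higher there (beside 11.9% and 20.4%). The fold alone gave 1 lower in senescent over young control (beside 19.9% of all genes). It gave 5 higher in TSA + phenamil over young control (beside 18.5%). With no count minimum 2 were lower in TSA over senescent control (beside 6.95% of all genes), Gsta4 being the added one. The cause of the changes under total counts was not tested. Among the log2 ratios of single genes under alternatives, 4 lay outside their counting intervals and 1106 did not. One of the 4 was Fth1 in TSA + phenamil over TSA, which total counts moved to -0.10. Depth limits Mgst1 and Mgst3, with 59 and 253 counts in all. Spread between cultures could not be measured in any comparison.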
